A study of Mus musculus with 8 samples.

Results

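The miR-130 and miR-301 family was examined in small RNA libraries of 8 hearts of C57Bl6/J wt mice, 4 female and 4 male, aged 4 to 6 weeks and called adult in the labels. Each heart was extracted separately into 1 library of RNA enriched for molecules below 200 nt, so the libraries of a sex are separate animals and sex is the difference between the groups. Members were the hairpins named mir-130a, mir-130b, mir-130c, mir-301a or mir-301b in the tables, whichever of 3 species (mouse, human or rat) the entry came from. Of these 5 names, 3 had entries, namely mir-130a, mir-130b and mir-301a, with 6 entries among 764 in all. The names mir-130c and mir-301b were not analysed here. The entries held counts on 4 mature arms of 685 listed, which are miR-130a-3p, miR-130b-5p, miR-301a-5p and miR-301a-3p.

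A miRNA hairpin is cut into a duplex whose arms come from the 5' and the 3' side, and one of them is loaded into an Argonaute protein, where its seed (bases 2 to 8) pairs with target mRNAs. In this family the 3' arms carry the shared seed and are the arms usually studied as the active strand, while the 5' arms have other seeds. miR-130a is known from human endothelial cells as a repressor of the anti-angiogenic homeobox genes GAX and HOXA5, and the family is known for repressing the nuclear receptor PPARγ, in fat cells and in the vessel wall in pulmonary hypertension.

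The 3' arms are shown first because they define the family. Capitals mark the seed in the mature sequences of RefSeq (GRCm38.p6), 5′ to 3′. The first 4 below share all 7 seed bases, and miR-148a-3p and miR-152-3p, of another family, hold only the first 6 of these bases, beginning at base 3, and have a seed of their own.
miR-130a-3p: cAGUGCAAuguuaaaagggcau
miR-130b-3p: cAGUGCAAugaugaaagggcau
miR-130c: cAGUGCAAuguuccaaggugug
miR-301a-3p: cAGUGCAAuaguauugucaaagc
miR-148a-3p: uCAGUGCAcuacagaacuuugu
miR-152-3p: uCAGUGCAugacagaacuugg

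miR-130a-3p and miR-130b-3p matched at 20 of 22 positions, while miR-130a-3p and miR-301a-3p shared their first 9 bases and matched at 12 positions. Of 1738 mature entries in the RefSeq table, 7 had this seed, the others being miR-721, miR-6341 and miR-6389. That table holds no 3' arm of mir-301b, so its seed was not examined and the 7 do not cover it. Counts were listed for 2 of the 7, miR-130a-3p and miR-301a-3p, and miR-130c was not analysed here.

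The 5' arms are shown because they held most of the counts of mir-301a and all arm counts of mir-130b. Capitals here mark the exact reverse complement of the family seed, which began at base 13 in 3 of the 4 and has no exact match in miR-130a-5p.
miR-130a-5p: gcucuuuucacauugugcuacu
miR-130b-5p: acucuuucccugUUGCACUacu
miR-301a-5p: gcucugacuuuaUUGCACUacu
miR-301b-5p: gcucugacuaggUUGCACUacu

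Bases 2 to 8 of these arms differ from the family seed and, except for the shared ones of miR-301a-5p and miR-301b-5p, from each other. Counts on a 5' arm are therefore not counts of a miRNA with the family seed.

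In the mouse genome (GRCm38) the hairpins lie at 4 places. Mir130a lies on chromosome 2 (chr2:84741115-84741178, minus strand) and overlaps no other gene in GENCODE vM21. Mir301, the hairpin of mir-301a, lies on chromosome 11 (chr11:87113004-87113089, plus strand) in an intron of Ska2, a gene of chromosome segregation, on the same strand. Mir130b (chr16:17124061-17124142) and Mir301b (chr16:17124400-17124496) are 257 bases apart on the minus strand of chromosome 16, in an intron of 2610318N02Rik. Mir130c (chr9:53400805-53400886, minus strand) overlaps an exon of Kdelc2 on the opposite strand.

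The hairpins of Mir130a and Mir301 are given with the 5' and 3' arms in capitals, since reads counted on neither arm are described further on.
Mir130a: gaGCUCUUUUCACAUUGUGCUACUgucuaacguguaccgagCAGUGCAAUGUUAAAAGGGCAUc
Mir301: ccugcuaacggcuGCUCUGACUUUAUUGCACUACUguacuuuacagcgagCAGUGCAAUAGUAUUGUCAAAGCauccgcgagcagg

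The loop between the arms has 17 bases in Mir130a and 15 in Mir301, and the Mir130a hairpin extends only 2 bases before its 5' arm and 1 base after its 3' arm.

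The libraries held 29900500 to 38894987 counts, of which 29169537 to 37791810 lay on mature arms. Scaling factors (TMM, the trimmed mean of M values) ran from 0.845 to 1.06, except for female replicate 3 at 1.41. The heart muscle miRNAs miR-208a-3p, miR-208b-3p and miR-499-5p were found in every heart, with 3056 to 8198 summed CPM (the counts-per-million scale over mature counts, with TMM unless stated), and the liver miRNA miR-122-5p had 1.10 to 7.45 CPM. Of the neuronal markers miR-124-3p was listed at 0, while miR-9-5p had 134 to 231 CPM. These are whole hearts, so fewer cells of a type and less RNA per cell cannot be told apart.

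The counts listed for the family were few. Its 4 arms held 2720 of 261138048 mature counts. Of these, 2171 stood under the human entry of mir-130a with 0 exact matches, so the family level rests mostly on variant reads. It averaged 9.94 ± 2.97 CPM without TMM scaling in the female group and 11.0 ± 0.702 CPM in the male group (SD, n = 4 each). Single hearts ran from 6.57 CPM in female replicate 4 to 13.6 CPM in female replicate 3, and the sexes overlapped. The difference, female minus male, was -1.05 CPM and smaller than the spread among female hearts.

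miR-130a-3p was the most abundant member arm, with 2171 counts and rank 297 of 685. All of its counts stood under the human entry and 0 were exact matches, so this is a rank of variant reads. miR-301a-5p followed with 300 counts (rank 449), miR-130b-5p with 175 (rank 494) and miR-301a-3p with 74 (rank 552). All 4 arms are 22 or 23 bases long, so length hardly affects these levels. The lowest count of miR-130a-3p in a heart, 181, was above the highest of miR-301a-5p, 113, and miR-130a-3p was above it in 8 of 8 hearts. The other neighbours in this order did not differ beyond their spread. miR-301a-5p was above miR-130b-5p in 5 hearts, equal in 1 and below it in 2, and miR-130b-5p against miR-301a-3p gave the same split.

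**Figure D1:**
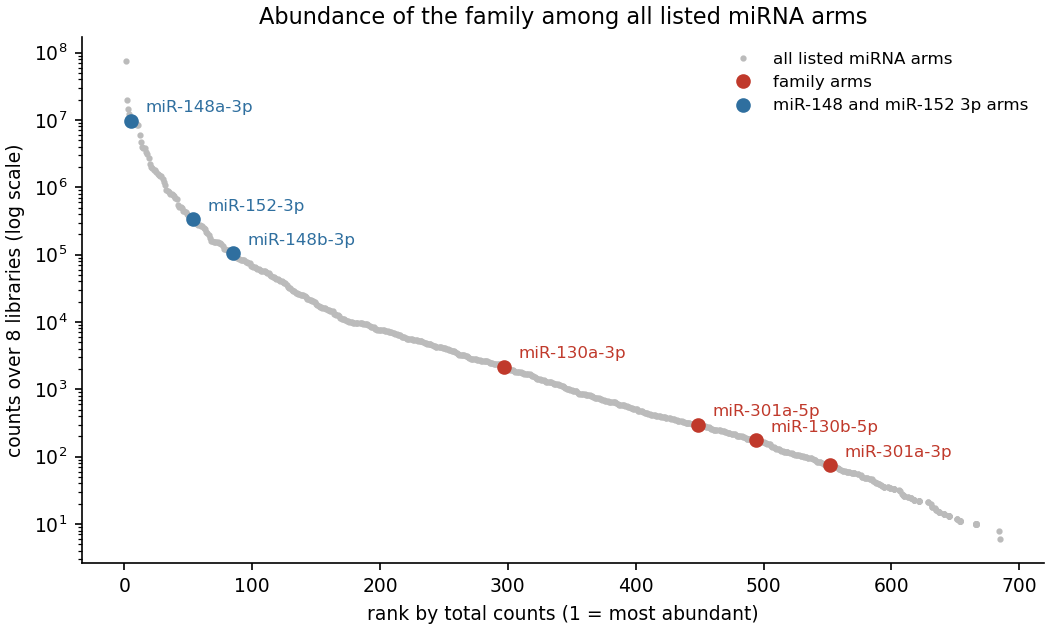
Total counts over the 8 libraries (log scale) of each of 685 listed miRNA arms against its rank, with the 4 family arms in red and the 3' arms of miR-148a, miR-152 and miR-148b in blue. miR-130a-3p stands at rank 297 with 2171 counts and the other family arms between ranks 449 and 552, while miR-148a-3p stands at rank 5.

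The arms with the family seed held 2245 counts, 193 to 395 in a heart, most of them the variant reads of miR-130a-3p. The 3' arms of miR-148a, miR-148b and miR-152, which share 6 of the 7 seed bases, begun 1 base later, held 1663 to 7179 times as many counts in a heart. The lowest of these ratios was that of female replicate 3, and the other 7 hearts had 4360 to 7179. miR-148a-3p alone had 9751582 counts.

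Single entries showed where the counts of mir-130a lay. All 2171 counts of miR-130a-3p stood under the human entry, while the mouse entry of mir-130a was listed at 0 on both arms in each heart where it had a row. The counts of the human entry were 258, 251, 362 and 181 in female replicates 1 to 4 and 307, 245, 247 and 320 in male replicates 1 to 4. They were highest in female replicate 3 and lowest in female replicate 4, and the male values lay inside the female range. All of these reads were unique to the entry and 0 of them matched its mature sequence exactly. Over the tables, 106 of 531 miRNAs with at least 100 counts had 0 exact reads, and the median share of exact reads was 23.0%. Of the 531, 92 had a human or rat entry alone, and for 7 of these, miR-130a-3p among them, a mouse entry of the same hairpin name existed. The level and rank given for miR-130a-3p are therefore those of variant reads under the human name. The family level and the ratios to miR-130a-3p and to the arms with the family seed rest mostly on these reads. How they relate to the level of mature mouse miR-130a-3p was not tested.

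The 5' arm held more counts than the 3' arm in both other hairpins. For mir-301a, 80.2% of arm counts were on the 5' arm (300 against 74), and for reads that matched exactly 63.4% were (111 against 64). The exact share leans on 1 heart. Of the 111 exact 5' reads, 46 of the mouse and all 14 of the rat entry came from female replicate 2. The 5' arm of mir-301a, whose mouse entry was joined by 14 counts of a rat entry in female replicate 2, had 0, 113, 16 and 36 counts in female replicates 1 to 4 and 23, 28, 74 and 10 in male replicates 1 to 4. It was highest in female replicate 2 and at 0 in female replicate 1.

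The 3' arm of mir-301a, which carries the family seed, had 0, 16, 33 and 12 counts in female replicates 1 to 4 and 0, 0, 13 and 0 in male replicates 1 to 4. It was listed in 3 of 4 female and 1 of 4 male hearts. Over all counts, variant reads included, only in female replicate 3 did the 3' arm exceed the 5' arm, with 33 counts against 16. The 5' arm exceeded the 3' arm in 6 hearts, and in female replicate 1 both were at 0. Among exact reads, the 3' arm exceeded the 5' arm in female replicates 3 (23 against 0) and 4 (12 against 0). The 5' arm was the higher in female replicate 2 and male replicates 1, 2 and 3.

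For mir-130b the 3' arm was listed at 0 in all hearts, and the 5' arm held 175 counts, 121 under the human and 54 under the mouse entry. Exact matches were 111 of the 121 human counts and 0 of the 54 mouse counts. miR-130b-5p had 0, 28, 0 and 0 counts in female replicates 1 to 4 and 20, 78, 28 and 21 in male replicates 1 to 4. It was listed in all male hearts and in 1 female heart.

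More 5' than 3' counts was the commoner case in the tables: of 447 hairpin names with at least 100 arm counts, 261 (58.4%) had it, and 154 (34.5%) had 0 counts on the 3' arm. A 0 on a mature arm in these tables sets no upper limit. Among uniquely assigned reads on mature arms, 0 values lay from 1 to 9 and 753 from 10 to 19, and the lowest member count above 0 was 10. The exact 95% Poisson interval of a count of 10 is 4.80 to 18.4 and that of the 181 counts of miR-130a-3p in female replicate 4 is 156 to 209, which cover counting error only.

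**Figure D2:**
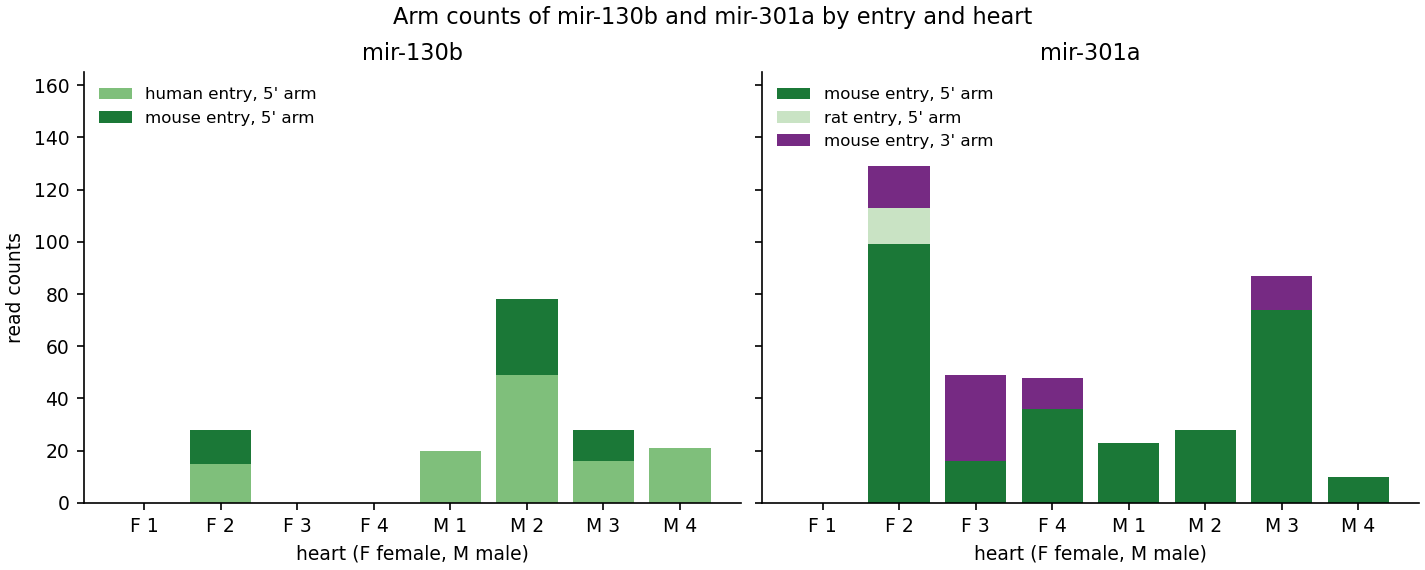
Read counts of mir-130b (left) and mir-301a (right) in each heart, stacked by entry and arm, with 5' arms in green and the 3' arm in purple. mir-130b has 5' counts in 1 female and 4 male hearts, and the 3' arm of mir-301a appears in female replicates 2, 3 and 4 and in male replicate 3.

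Female and male hearts were compared to ask whether family members differ in level by sex. None of the 4 member arms passed an adjusted p of 0.05 with edgeR's quasi-likelihood test, as none of all 563 tested miRNAs did (0%). At an unadjusted p under 0.05 there were 0 of 4 members, against 28 of 563 miRNAs (4.97%), of which 12 were lower (2.13%) and 16 higher (2.84%) in female hearts. DESeq2 called 3 miRNAs and limma-voom 0, and both called 0 members. At an unadjusted p under 0.05 DESeq2 had 0 members and limma-voom 1, miR-130b-5p. Among edgeR alternatives miR-130b-5p was also under it with species rows kept apart, with replicate number as a block and without female replicate 2. Without male replicate 3 miR-301a-3p was under it, and the other alternatives had no member there. The CPM ranges of the sexes did not overlap for 17 of 563 miRNAs (3.02%) and overlapped for all 4 members.

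miR-130a-3p had 10.02, 6.29, 8.47 and 5.37 CPM in female replicates 1 to 4 and 10.7, 7.94, 7.27 and 11.3 CPM in male replicates 1 to 4. Means were 7.54 ± 2.10 CPM for the female and 9.32 ± 2.02 CPM for the male group (SD, n = 4 each). The log2 fold change, female minus male, was -0.31 (SE 0.25, edgeR adjusted p = 0.821), and with library size alone in place of TMM it was -0.09 (SE 0.27), when the median of all miRNAs moved from -0.06 to 0.13. All 16 alternatives that gave a value kept the sign.

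miR-130b-5p averaged 0.175 ± 0.351 CPM over the female group and 1.20 ± 0.888 CPM over the male group (SD, n = 4 each). The log2 fold change was -2.70 (SE 1.29, edgeR unadjusted p = 0.0602, adjusted p = 0.801). The 1 female heart with counts, replicate 2 at 0.702 CPM, lay just above the lowest male heart, replicate 1 at 0.700 CPM. Male replicate 2 was the highest at 2.53 CPM, and leaving it out gave -1.95 (SE 1.502). Without female replicate 2 the remaining female hearts were all at 0, so no fold is given, and the adjusted p was 0.0829. Counts in all 4 male and at most 1 female heart were found for 1 of 563 tested miRNAs, miR-130b-5p itself, and the reverse for 1 other. This pattern was taken from the values of miR-130b-5p, and the count filter admits such an arm through the hearts where it is listed. The count is therefore no test of a sex difference. The 3 red cell markers, both arms of miR-144 and miR-451a-5p, were listed in every heart. Their summed level was 54.6 to 213 CPM in female and 154 to 1175 CPM in male hearts. For both arms of the endothelial miR-126a it was 54025 to 88369 CPM and 73394 to 125086 CPM. Heart muscle markers had 4047 to 8198 CPM in female and 3056 to 6064 CPM in male hearts. Smooth muscle markers had 45818 to 67705 CPM and 47338 to 61044 CPM, and leukocyte markers 259 to 278 CPM and 228 to 355 CPM. For each of these lists the ranges of the sexes overlapped. The part of these markers in the miR-130b-5p values was not tested.

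miR-301a-5p averaged 1.07 ± 1.26 CPM over the female group and 1.06 ± 0.782 CPM over the male group (SD, n = 4 each). The fitted log2 difference was 0.02 (SE 0.96, edgeR adjusted p = 0.9998). Among female hearts the SD exceeded the mean, and the sign turned in 7 of 18 alternatives, with -1.13 (SE 1.06) without female replicate 2 and 0.76 (SE 1.11) without male replicate 3.

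miR-301a-3p averaged 0.382 ± 0.316 CPM over the female group and 0.0956 ± 0.191 CPM over the male group (SD, n = 4 each). The log2 fold change was 1.93 (SE 1.55, edgeR adjusted p = 0.821). Male replicate 3 was the only male heart with counts, so without it no fold is given and the edgeR adjusted p was 0.651. The same presence in 3 female hearts and 1 male heart was found for 10 of 563 tested miRNAs, miR-301a-3p among them. Presence in 1 female heart and 3 male hearts was found for 3. This pattern too was taken from the values of the arm itself, here miR-301a-3p, so these counts are no test of a sex difference.

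**Figure D3:**
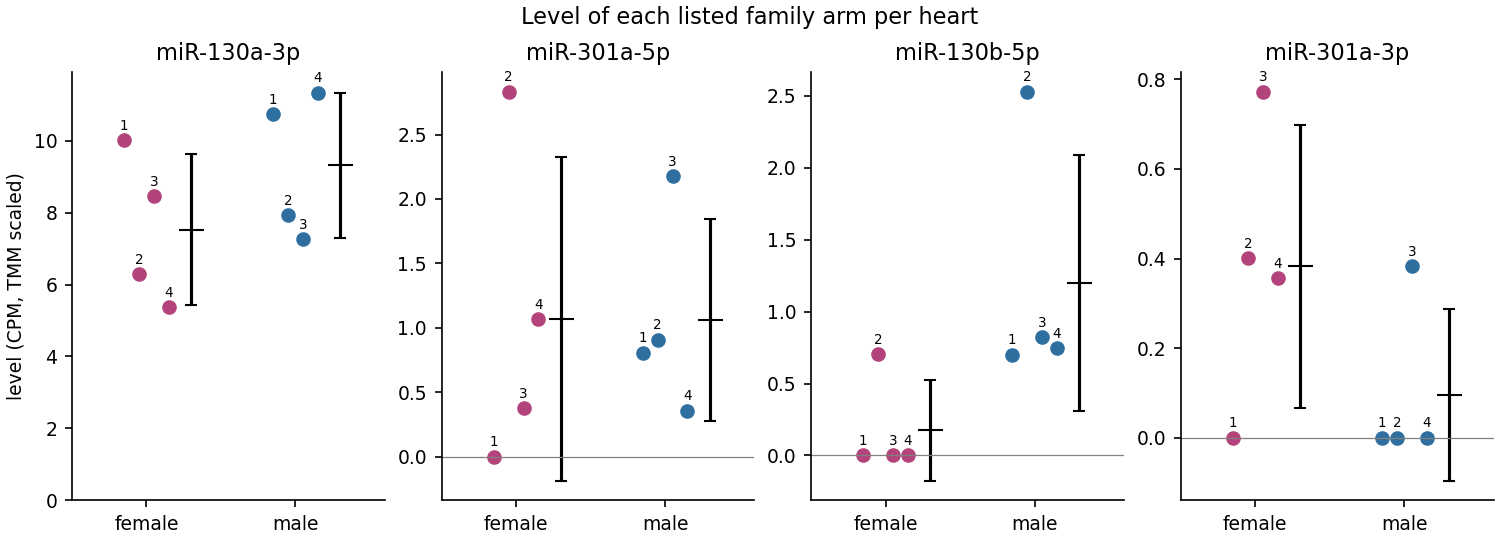
Level (CPM, TMM scaled) of each listed family arm in each heart, numbered by replicate, with mean and SD (n = 4) in black beside the points. The sexes overlap in every panel; miR-130b-5p is at 0 in 3 female hearts and miR-301a-3p at 0 in 3 male hearts.

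**Figure D4:**
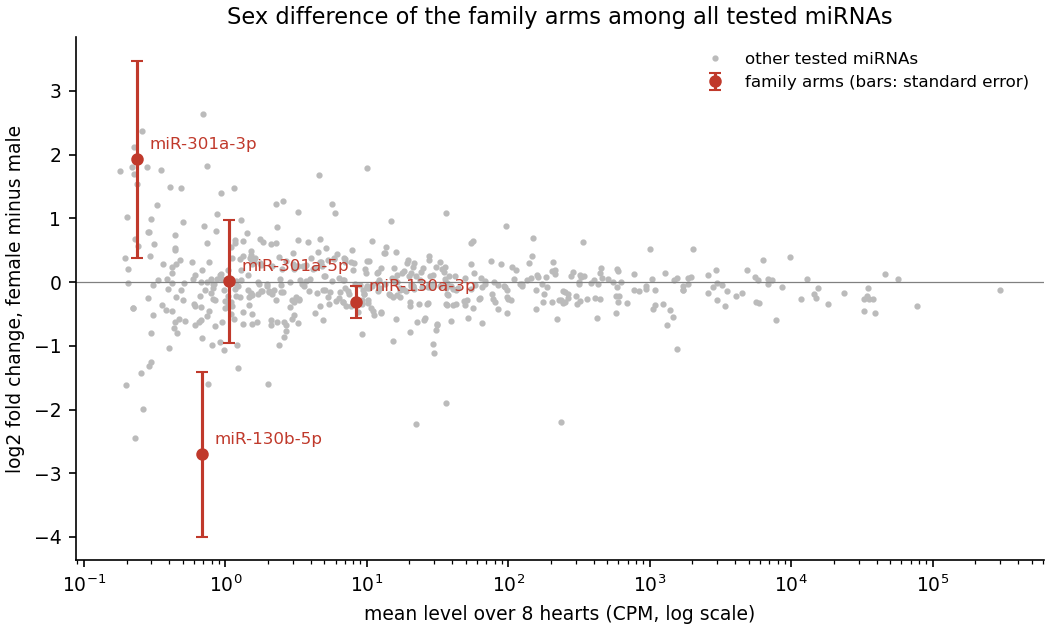
Log2 fold change, female minus male, against mean level (CPM, log scale) for 563 tested miRNAs, with the 4 family arms in red and their standard errors as bars. miR-130a-3p lies at -0.31, miR-301a-5p at 0.02, miR-130b-5p at -2.70 and miR-301a-3p at 1.93, and none passes an adjusted p of 0.05.

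Ratios within a library do not depend on scaling. The log2 ratio of miR-301a-3p to miR-130a-3p, with a pseudocount of 0.5, averaged -5.06 ± 2.65 over the female group and -7.93 ± 2.50 over the male group (SD, n = 4 each). They differed by 2.87 (two-sided exact permutation test, p = 0.0857). The smallest p that 4 against 4 hearts allow is 0.0286. In 4 of 8 hearts this ratio rests on the pseudocount, since miR-301a-3p was at 0. The ratios of both 5' arms to miR-130a-3p, examined after the values were seen, differed by -4.40 for miR-130b-5p (exact permutation p = 0.0857, adjusted over these ratios 0.171) and by -0.86 for miR-301a-5p (exact permutation p = 0.743, adjusted 0.743).

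The ratio of 5' to 3' counts within a hairpin was tested with limma for hairpins with a mean of at least 10 counts on each arm. No member hairpin was among these 115, of which 0 passed an adjusted p of 0.05 (0%) and 4 had an unadjusted p under 0.05 (3.48%). The 3' arm of mir-301a had a mean of 9.25 counts, so a mean of at least 5 was added after the values were seen. Under it, mir-301a was 1 of 128 hairpins, again with 0 passing (0%) and 5 at an unadjusted p under 0.05 (3.91%). Its log2 ratio was 0.00, 2.78, -1.02 and 1.55 in female replicates 1 to 4 and 5.55, 5.83, 2.46 and 4.39 in male replicates 1 to 4. Female replicate 2 lay above male replicate 3, and the other female hearts lay below all male hearts. The difference was -3.73 (SE 1.02, limma unadjusted p = 0.00694, adjusted p = 0.301). The value of 0.00 in female replicate 1 stands for 0 counts on both arms, and 3 of the male values stand for 0 counts on the 3' arm.

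Some reads on the mouse mir-130a hairpin were counted on neither arm. The RefSeq hairpin has 17 bases between its arms, so any read on it longer than 17 bases overlaps an arm. Lengths and positions of these reads were not examined, so they may cover bases of an arm. They numbered 10, 13, 25 and 19 in female replicates 1 to 4 and 5, 10, 11 and 0 in male replicates 1 to 4. These were 93 in all, and all matched the hairpin exactly. As CPM of the mature counts they came to 0.514 ± 0.228 for the female and 0.207 ± 0.165 for the male group (SD, n = 4 each), which differ by 0.307 (two-sided exact permutation test, p = 0.0286, the smallest this design gives; the comparison was chosen after the values were seen). The lowest female value, 0.343, and the highest male value, 0.341, were nearly the same, and without female replicate 3 the exact permutation p was 0.0571, the smallest for 3 against 4 hearts. Of 265 entries with such reads in at least 4 hearts, 6 (2.26%) had ranges that did not overlap between the sexes, and 3 (1.13%) had all female values above all male values. Female replicate 3, with the highest value, also had the highest scaling factor. Over all hairpins, reads counted on neither arm made up 2.86% ± 0.297 of all counts for the female and 2.64% ± 0.432 for the male group (SD, n = 4 each). The part of these values in the difference was not tested.

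Covariation over the 8 hearts was examined for the 6 pairs of the 4 arms with counts. This choice was made after the values were seen, because the 3' arm of mir-130b was at 0 and mir-301b was not analysed. None of the 6 had an adjusted p under 0.05, with Pearson r of log2 CPM from -0.727 to 0.551 (exact permutation, adjusted p from 0.296 to 0.685). miR-130a-3p and miR-301a-3p, the arms with the family seed, had the r of -0.727 (exact permutation p = 0.0601) and a Spearman rho of -0.470 (exact permutation p = 0.244). Without the 2 hearts farthest from the median of miR-130a-3p the r was -0.670, and without female replicate 3 it was -0.863. With library size alone it was -0.220 (rho -0.152), and in that setting -0.876 without the 2 farthest hearts, female replicates 3 and 4. With RLE scaling factors the r was -0.669. For miR-130a-3p and miR-301a-5p the r was -0.551 (exact permutation p = 0.154) and the rho -0.810 (exact permutation p = 0.0218, adjusted over the 6 pairs 0.131), with an r of -0.656 without the 2 farthest hearts. Both arms of mir-301a had an r of 0.486 (exact permutation p = 0.198) and a rho of 0.337 (exact permutation p = 0.412), and the r fell to 0.224 without the 2 farthest hearts. The zeros of 3 of the arms are set by the prior count of 0.5, and within a sex 4 hearts are too few for a correlation.

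No member arm reached a mean of 10 CPM, the level set for naming miRNAs of like pattern. For miR-130a-3p alone, chosen after its values were seen, the tested miRNAs outside the family with the highest Pearson r of log2 CPM over 8 hearts were miR-335-5p (0.948), miR-330-5p (0.943) and miR-195a-5p (0.932). They are the highest of 559 such values, whose median was 0.0661, and all share the libraries and their scaling. With library size alone they were 0.888, 0.944 and 0.896.

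The 3' arms of miR-148a, miR-148b and miR-152 and a list of miRNAs placed downstream of the family in studies of pulmonary vessels (both arms of miR-204, miR-322, its human counterpart miR-424, and miR-503) were read in the same fit. miR-148a-3p had a log2 fold change of -0.48 (SE 0.34), miR-148b-3p -0.25 (SE 0.28) and miR-152-3p 0.14 (SE 0.19), with edgeR adjusted p from 0.801 to 0.913. Of the 8 arms of the list, 7 had counts and were tested, 0 passed, 2 had the higher and 5 the lower fitted mean in female hearts, and the median was -0.12, against -0.06 over all 563. miR-204-5p, the most abundant of them, averaged 158 ± 25.2 CPM over the female and 196 ± 22.7 CPM over the male group (SD, n = 4 each), and its fitted log2 difference was -0.31 (SE 0.19, edgeR adjusted p = 0.801). miR-503-5p averaged 8.13 ± 1.57 CPM over the female and 8.32 ± 0.718 CPM over the male group (SD, n = 4 each), near the level of miR-130a-3p, with -0.03 for the log2 difference (SE 0.20, edgeR adjusted p = 0.972). miR-424-5p, a human entry, had counts in 6 hearts.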

How the data were processed

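Read counts per miRNA hairpin entry, split by arm, were deposited by the authors in 1 table per heart, per the file headers. The submitters' processing notes name STAR and mm10; their roles and versions, the counting tool, trimming and filters: not given in the sources used here. Mature counts of the same name and arm were summed over species. Numbered copies of a hairpin were joined if their mouse entries had less than 50% unique reads, giving 685 miRNA arms, 568 with a mouse entry. Reads counted on neither arm stayed out of library sizes and of tests of the mature arms. edgeR 4.0.16 (R 4.3.3, TMM, sex alone, filterByExpr defaults: count 10, total 15) tested 563, or 99.998% of mature counts. Benjamini-Hochberg adjustment ran across these 563. Each SE came from the log2 fold change and the root of its F statistic. Arm ratios used limma 3.58.1, and DESeq2 1.42.0 was an alternative. Single values used exact permutation tests (scipy 1.17.1). The fits were also run on simulated counts with changes placed without regard to level. Recovery for arms as scarce as the members was not examined apart. Libraries were no copies of each other (smallest chi-square per degree of freedom between 2 libraries 565.5).

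The members, lists and tests were chosen with earlier results of these data known. The text names every member arm, RefSeq miRNAs with the family seed, the miR-148 and miR-152 3' arms, the list of miR-204, miR-322, miR-424 and miR-503, cell type markers and miRNAs of like pattern. Of the cell type markers, summed CPM ran from 54025 to 125086 for endothelium, 45818 to 67705 for smooth muscle, 54.6 to 1175 for red cells and 228 to 355 for leukocytes. The plan compared 3' arms; with those of mir-130b and mir-301b without counts, the plan left 1 ratio and 1 pair, and 5' arms were added after the values were seen. Other alternatives were scaling, filters, units, tools and leaving out each heart.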

Additional observations from a re-analysis of the deposited data

Results flagged for a closer look

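Of 32 groups of 4 hearts, 5 contained 1 value set apart from the other 3 under Dixon's criterion. The groups were the member arms, the compared miRNAs, the family level and the reads counted on neither arm of mir-130a, split by sex. Chance sets apart about 1 in 20 groups of untied values; in 2 of the 5 the other 3 hearts were all at 0, where any value above 0 is set apart and that rate does not apply. For miR-130b-5p, female replicate 2 had 0.702 CPM with the other female hearts at 0, and male replicate 2 had 2.53 CPM against 0.700 to 0.824 in the other male hearts. For miR-301a-3p, male replicate 3 had 0.382 CPM with the other male hearts at 0. For miR-152-3p, male replicate 1 had 1548 CPM against 1081 to 1134 in the other male hearts. For miR-204-3p, female replicate 1 had 3.22 CPM against 0.912 to 1.22 in the other female hearts.

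Reads counted on neither arm of the mouse mir-130a hairpin numbered 93 over the 8 libraries and were listed in 7 of 8 hearts. They enter no level or test of the mature arms.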

How the results depend on the processing

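No member arm was called in the 18 of 19 alternatives that tested one; at least 10 CPM in 4 libraries left none to test. By arm ratio, mir-301a was tested in 5 of 14 alternatives and not called (limma adjusted p from 0.299 to 0.779). Of 11 alternatives for the ratios to miR-130a-3p, 9 (single hearts left out, and the replicate block) could not pass 0.05 in an exact test, and the other 2 gave no call. No pair was called in 17 alternatives. The count of all miRNAs called, 0, became 1 with no filter on low counts, with at least 10 CPM in 4 libraries, with mouse entries only, with exact-match counts and with the replicate block, and 3 with DESeq2; leaving out single hearts gave 0 to 2, the 2 without female replicate 3. The log2 fold change of miR-301a-5p turned to -0.91 with limma-voom, -0.045 with rows as deposited, -0.058 with mouse entries only and -0.61 with the replicate block, and ran from -1.13 to 0.76 when single hearts were left out; the cause was not tested. The family level, female minus male, ran from -2.26 to 0.0751 CPM when single hearts were left out. Deviations from the sex means in libraries of the same number had r of 0.265, 0.239, 0.263 and -0.0146. Libraries of unlike number were not compared, so whether the numbers mark pairs or batches was not tested. The main fit did not use the numbers. With the replicate block miR-130b-5p was at -4.43 (SE 1.20, edgeR unadjusted p = 0.00369, adjusted p = 0.260). Mouse entries only and exact-match counts hold no count of miR-130a-3p, so they gave no value for it, for its ratios or for its pairs. For 3 of the 4 arms 1 to 4 hearts were at 0, and uniquely assigned mature counts held 0 values from 1 to 9; the part of depth in these zeros was not tested.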
